A study of Mus musculus with 33 samples.

Results

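The genes described here are 9 components of TGF-beta signalling: the ligands Tgfb1, Tgfb2 and Tgfb3, the receptors Tgfbr1, Tgfbr2 and Tgfbr3, the latency binding protein gene Ltbp1, and the feedback genes Smad7 and Skil. They were chosen by gene symbol, and all 9 were found among the 17120 genes of the count table. All 9 passed the filter on low expression, as did every gene of that table. RNA sequencing covered 33 libraries in 11 groups of 3 replicates, made from mouse embryonic stem cells that carry a ScxGFP reporter. Paraxial mesoderm (PM, D6) came from cells that formed embryoid bodies with the BMP inhibitor LDN-193189 and then grew with LDN-193189 and the Wnt agonist CHIR, in a medium for which the sources used here do not make clear whether it held AGN. The labels call the PM samples embryoid bodies and the others monolayers, whereas the methods mention embryoid bodies for the start of differentiation only, so the form of the PM culture at D6 is not settled. From D6 all other cultures received TGFβ1, the smoothened agonist SAG and FGF2, together with a retinoid ligand. This was CD1530, which activates RARγ, in the tendon protocol, and AGN, an inverse agonist that lowers RAR activity below its resting level, in the fibrocartilage protocol (RAR, retinoic acid receptor). Both kinds of culture were sampled 5 times after D6: at D6.25 (0.25 days of induction), D6.75 (0.75), D7.5 (1.5), D8.5 (2.5) and, last, D10 (4). The ligands CD1530 and AGN were used at different concentrations and no induced culture went without a retinoid ligand, so each comparison is of one ligand against the other. The induction medium as described no longer held LDN-193189 or CHIR. Between PM and D6.25 the added TGFβ1, SAG, FGF2 and retinoid ligand thus coincided with the end of BMP inhibition and of Wnt activation. Any change in the form of the culture fell there too, and these cannot be told apart. The added TGFβ1 is a protein, and the counts report the mRNA of the cells' own genes.

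TGF-beta ligands are secreted in a latent form, bound to their own propeptide and often to a latent TGF-beta binding protein such as the product of Ltbp1, which ties the complex to the extracellular matrix. Released ligand binds the type II receptor, encoded by Tgfbr2, which recruits and activates the type I receptor, encoded by Tgfbr1, and the activated receptor phosphorylates Smad2 and Smad3. Tgfbr3 encodes betaglycan, a co-receptor that presents ligand and is needed most by the Tgfb2 product. Smad7 and Skil are classical negative feedback genes: Smad7 blocks the type I receptor and Skil (SnoN) represses Smad-bound genes. In the embryo this pathway is required for the formation of tendons, and the Tgfb2 and Tgfb3 ligands act there.

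Total counts were between 17.1 M and 22.8 M per library, except for AGN at D8.5 replicate 1 with 38.1 M. Replicates correlated across genes at 0.9927 to 0.9977, and the library CD1530 at D6.75 replicate 1 stood furthest from its group, so that results resting on it are given with and without it. Cell type markers moved along the time course. The summed level of 4 paraxial mesoderm markers was 31.1 to 34.5 TMM CPM in PM, the lowest of any group. At D8.5 it was 165 to 173 with CD1530 and 143 to 155 with AGN, and the D10 means were 92.2 and 75.9. Of the 4, Tbx6 and Msgn1 had their highest mean in PM and Meox1 its lowest. Tcf15 had its highest mean at D7.5 with CD1530. The sum of 3 pluripotency markers was 1263 to 1285 in PM, and by D10 78.5 to 83.5 with CD1530 and 188 to 197 with AGN. At D10 the sum of 4 cartilage markers was 223 to 229 in CD1530 and 2909 to 3042 in AGN, and that of 3 tendon markers 881 to 912 and 1239 to 1298. Their part in the results below was not tested. In bulk cultures fewer cells of a type and less RNA per cell cannot be told apart.

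Levels are given as TMM CPM, library-scaled counts (CPM) after TMM normalization between libraries, as mean ± SD with n = 3. Differences are log2 fold changes ± SE from the edgeR fit to all genes, with called used for adjusted p-values (Benjamini-Hochberg, over all genes) below 0.05. Every library had at least 56 counts of every member, and the lowest count was for Tgfb3 in PM.

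From PM to D10 all 9 members changed in both conditions, where 83.2% of all genes were called in CD1530 and 82.0% in AGN. The change was upward for 7 members (43.3% of all genes in CD1530 and 41.6% in AGN) and downward for Smad7 and Tgfbr3 (39.9% and 40.4%). The median log2 fold change of the members was 1.88 in CD1530 and 1.70 in AGN, beside 0.04 and -0.00 over all genes. Both comparisons use the same PM libraries. Tgfb3 rose furthest, by 5.73 ± 0.07 in CD1530 and 5.33 ± 0.08 in AGN, followed by Ltbp1 with 3.77 ± 0.06 and 4.65 ± 0.06. Tgfbr2 rose by 2.75 ± 0.06 and 2.64 ± 0.06.

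**Figure D1:**
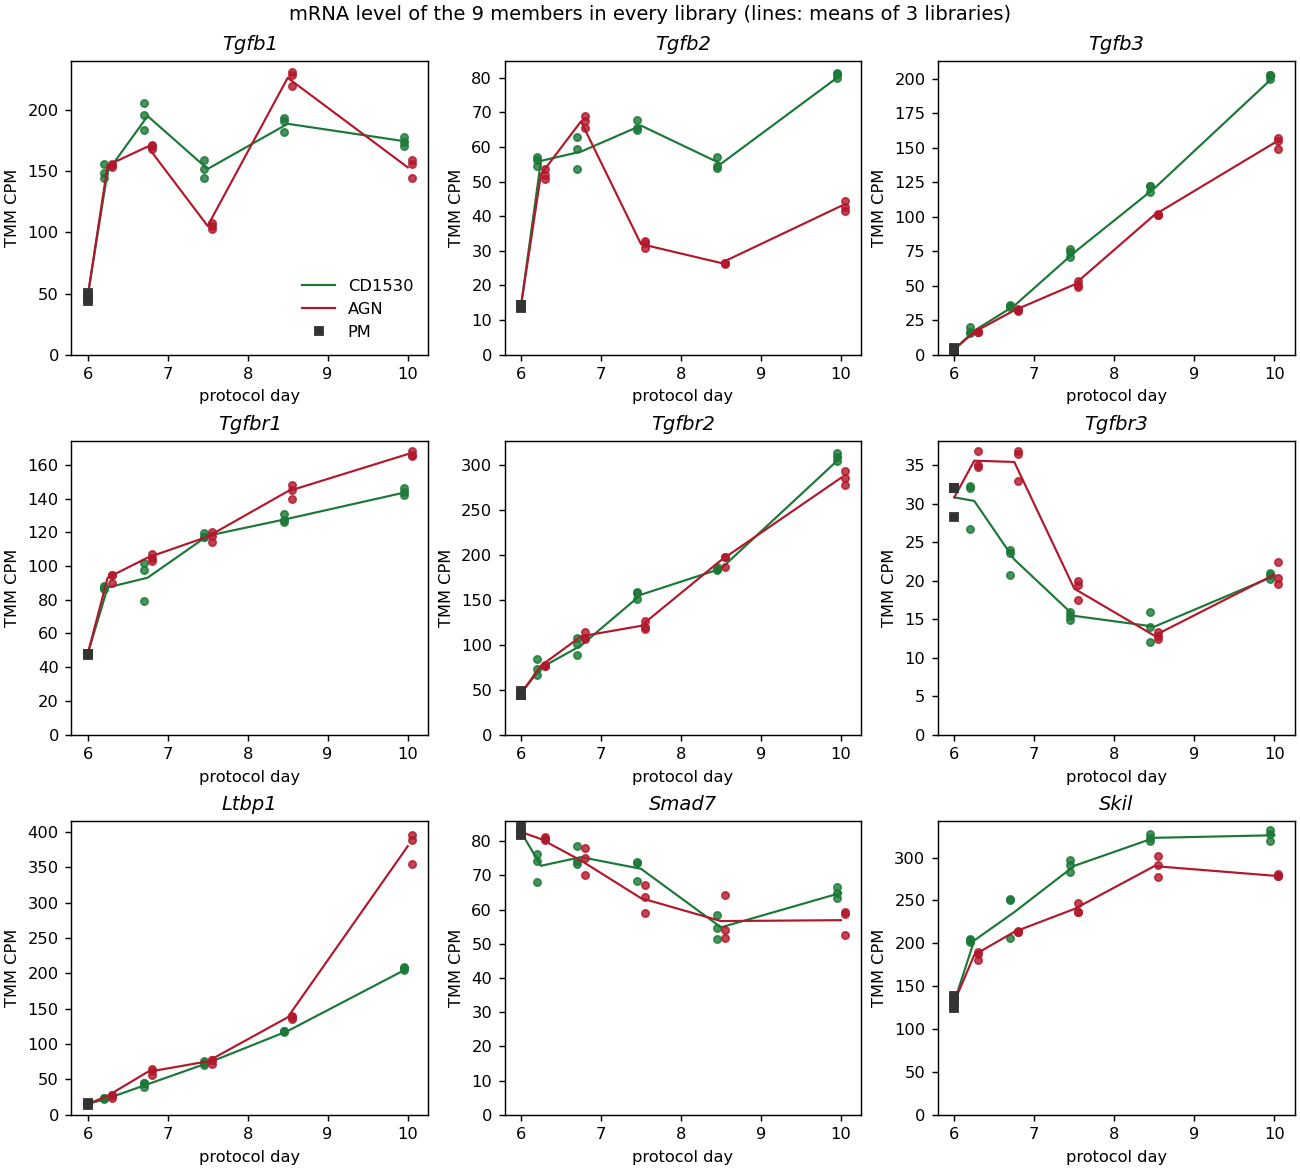
Level of each member (TMM CPM, y axis from 0) against protocol day in all 33 libraries. Points are single libraries and lines join the means of 3; black squares are PM, green CD1530 and red AGN. Tgfb3, Tgfbr2 and Ltbp1 climb throughout, the Tgfb2 curves part at D7.5, the Tgfb1 curves cross, and Tgfbr3 and Smad7 end below PM.

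The question of each comparison of CD1530 with AGN is which genes differ between the tendon and fibrocartilage protocols at 1 time. At D6.25, 0 of the 9 were called, with 1.92% of all genes called. At an unadjusted p under 0.05 the count was 5, with no share of all genes at that threshold to set beside it, so nothing is read from it. DESeq2 and edgeR's likelihood ratio test also called 0. A fit of the 6 libraries compared called 3 (Tgfbr3, Smad7 and Skil), with 804 of all genes called against 329 in the fit of all groups. At D6.75, 6 were called (18.0% of all genes): Tgfb1 and Skil were higher in CD1530 (7.94% of all genes), and Tgfb2, Tgfbr1, Tgfbr3 and Ltbp1 lower (10.0%). That count was 2 (Tgfbr3 and Ltbp1) in a fit of the 6 libraries compared, where all genes called fell from 3076 to 1236. It was 5 without CD1530 replicate 1 at D6.75. At D7.5, 7 were called (26.9% of all genes), 6 of them higher in CD1530 (15.2% of all genes) and only Tgfbr3 lower (11.8%), a call that was lost without AGN replicate 2 (adjusted p = 0.0558). At D8.5, 6 were called (40.0%), with Tgfb2, Tgfb3 and Skil higher (20.4%) and Tgfb1, Tgfbr1 and Ltbp1 lower (19.6%). At D10, 7 were called (46.6%), with Tgfb1, Tgfb2, Tgfb3, Smad7 and Skil higher (22.7%) and Tgfbr1 and Ltbp1 lower (24.0%). The median absolute log2 difference of the members was 0.30 at D7.5 and 0.21 at D10, beside 0.14 and 0.22 over all genes. A test of whether the difference changed over the 5 time points called 8 members (48.8% of all genes called), all but Skil. The call for Tgfbr1 in that test (adjusted p = 0.0481) held in 7 of 38 alternatives.

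**Figure D2:**
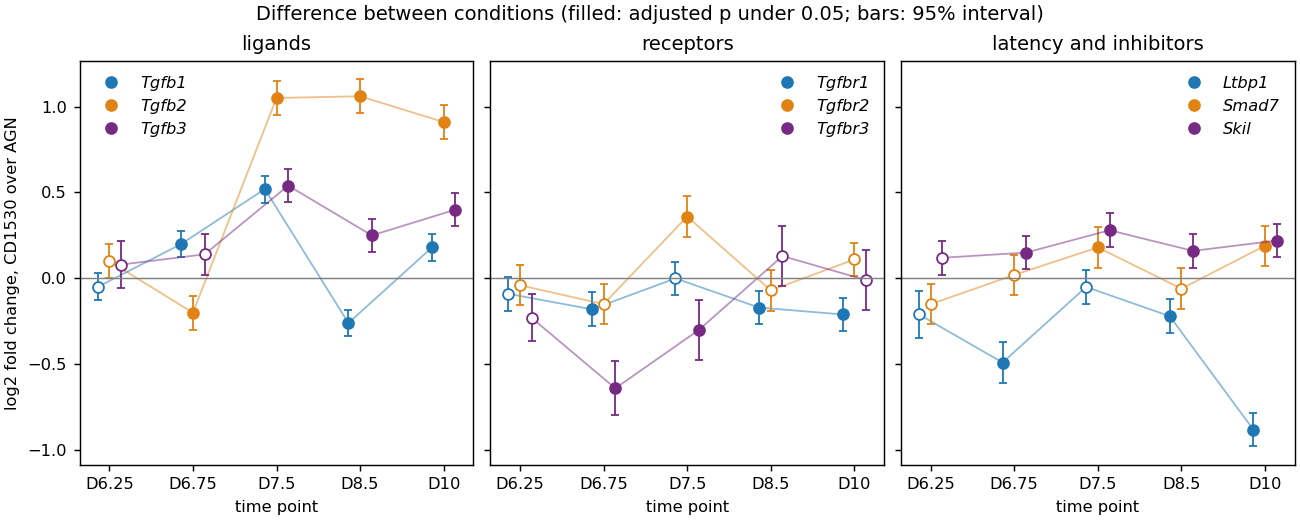
Log2 fold change of CD1530 over AGN (y axis) at each time point (x axis) for ligands, receptors, and Ltbp1 with the feedback genes. Bars are 95% intervals, filled points were called and open points were not. Tgfb2 stays near 1 from D7.5, Tgfb1 changes sign at D8.5, and Ltbp1 reaches -0.88 at D10.

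Tgfb1 (ENSMUSG00000002603; GRCm38, chromosome 7, 25687002 to 25705077, plus strand) encodes the ligand that was also supplied to the medium. Its level in the 3 PM libraries was 47.4, 50.1 and 44.2 TMM CPM. At D6.25 the CD1530 libraries held 145, 156 and 149 and the AGN libraries 154, 155 and 156. All 6 induced libraries lay above PM and the conditions overlapped. The rise from PM was 1.67 ± 0.05 in CD1530 and 1.71 ± 0.05 in AGN (adjusted p = 1.76e-29 and 7.55e-30).

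After that first step Tgfb1 moved up and down. In AGN the level was 170.5 ± 2.0 at D6.75, 106 ± 2.6 at D7.5, 227 ± 6.0 at D8.5 and 153 ± 7.4 at D10. In CD1530 the corresponding levels were 196 ± 11, 152 ± 7.1, 189 ± 6.6 and 174 ± 3.5. Both conditions thus dipped at D7.5 and rose at D8.5, and the swings were wider in AGN. From D6.75 to D7.5 the fall was -0.69 ± 0.04 in AGN and -0.37 ± 0.04 in CD1530, and the steps differed by 0.33 ± 0.06 (adjusted p = 0.000268). From D7.5 to D8.5 the rise was 1.10 ± 0.04 in AGN and 0.32 ± 0.04 in CD1530, which differed by -0.79 ± 0.06 (adjusted p = 7.11e-13).

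The Tgfb1 difference between conditions therefore changed sign. At D7.5 the CD1530 libraries had 152, 159 and 145 TMM CPM and the AGN libraries 108, 105 and 103, a difference of 0.52 ± 0.04 (adjusted p = 8.73e-13). At D8.5 the CD1530 libraries had 182, 191 and 194 and the AGN libraries 231, 219.9 and 229, a difference of -0.26 ± 0.04 (adjusted p = 2.67e-06). The libraries of the conditions did not overlap at either time. At D10 the difference was 0.18 ± 0.04 (adjusted p = 0.000516), again higher in CD1530. Leaving out any 1 library, including the deep AGN library at D8.5, kept the sign at D7.5, D8.5 and D10, with every one of those differences called.

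Tgfb2 (ENSMUSG00000039239; chromosome 1, 186622792 to 186705989, minus strand) encodes the ligand with the strongest need for betaglycan. It showed the largest difference between conditions of any member. PM libraries had 14.2, 13.6 and 14.2 TMM CPM, and by D6.25 the level was 56.0 ± 1.3 in CD1530 and 52.1 ± 1.4 in AGN. At D6.75 the AGN libraries, with 67.5, 65.6 and 69.0, lay above the CD1530 libraries, with 53.6, 59.3 and 63.0. That difference was -0.20 ± 0.05 (adjusted p = 0.00143), and -0.14 without CD1530 replicate 1 (adjusted p = 0.029).

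At D7.5 the order was reversed. The CD1530 libraries had 65.6, 67.9 and 65.0 TMM CPM and the AGN libraries 32.9, 32.2 and 30.7. The libraries lay far apart, 2.07-fold in the fit, and the difference was 1.05 ± 0.05 (adjusted p = 1.18e-20). It was 1.06 ± 0.05 at D8.5, where AGN had 26.6, 26.2 and 26.6 and CD1530 53.8, 57.1 and 54.5, and 0.91 ± 0.05 at D10. The turn fell in 1 step. From D6.75 to D7.5 Tgfb2 fell by 1.08 on the log2 scale in AGN and rose by 0.17 in CD1530. The steps differed by 1.25 ± 0.07 (adjusted p = 3.2e-17), while the following step differed by 0.01 ± 0.07 (95% interval -0.13 to 0.15). The CD1530 rise of 0.17 was 0.11 and not called without CD1530 replicate 1 at D6.75. After D8.5 Tgfb2 rose in both conditions, by 0.55 ± 0.05 in CD1530 and 0.70 ± 0.05 in AGN.

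Promoter sequences from RefSeq (GRCm38.p6) were matched for 5 of the 9 members, Tgfb1, Tgfb2, Tgfbr1, Tgfbr2 and Ltbp1, with 7 start sites. The 250 bases before the start site are shown for Tgfb1, whose difference between conditions changed sign, for Tgfb2, the member with the largest difference, and for the first start site of Ltbp1, the member with the largest D10 difference towards AGN. Each is 5′ to 3′ on the gene's strand. Capitals mark, on either strand, GGGCGG (the GC box) in Tgfb1, TATAAA (the TATA box) and CAGAC (a Smad-binding element) in Tgfb2, and TGACGTCA (the cyclic AMP response element) and CAGAC in Ltbp1.
Tgfb1, chr7:25686752-25687001, plus strand: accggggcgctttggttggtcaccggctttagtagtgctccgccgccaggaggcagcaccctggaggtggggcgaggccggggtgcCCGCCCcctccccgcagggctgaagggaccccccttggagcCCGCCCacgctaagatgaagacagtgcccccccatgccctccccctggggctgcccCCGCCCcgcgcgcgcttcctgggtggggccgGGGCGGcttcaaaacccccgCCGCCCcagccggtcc
Tgfb2, chr1:186705990-186706239, minus strand: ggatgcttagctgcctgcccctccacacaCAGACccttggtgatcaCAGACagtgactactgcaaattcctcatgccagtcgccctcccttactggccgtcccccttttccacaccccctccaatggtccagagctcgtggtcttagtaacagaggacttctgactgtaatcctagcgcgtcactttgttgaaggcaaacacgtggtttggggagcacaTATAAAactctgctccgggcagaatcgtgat
Ltbp1, chr17:75005279-75005528, plus strand: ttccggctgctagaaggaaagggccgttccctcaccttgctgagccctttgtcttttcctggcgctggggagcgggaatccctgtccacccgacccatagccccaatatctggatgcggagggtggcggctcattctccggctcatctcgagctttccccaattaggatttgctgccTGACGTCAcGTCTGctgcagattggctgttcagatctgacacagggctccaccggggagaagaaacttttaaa
The Tgfb1 window is 75.2% G and C, holds 5 GC boxes and no TATAAA. The Tgfb2 window is 53.6% G and C, with TATAAA starting 31 bases before the start site and CAGAC starting 221 and 204 bases before it. The Ltbp1 window has TGACGTCA starting 73 bases before the start. Of 32851 such windows in the table, 32.7% held GGGCGG, 12.4% TATAAA, 42.2% CAGAC and 1.55% TGACGTCA. The retinoic acid receptor core AGGTCA stood in 14% of all windows and in 0 of the 7 member windows. These are matches of letters in a short window and say nothing of binding.

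Tgfb3 (ENSMUSG00000021253; chromosome 12, 86056745 to 86079041, minus strand) encodes the third ligand. It had the lowest PM level of the members, with 4.83, 3.49 and 3.02 TMM CPM. At D10 the CD1530 libraries had 203, 200.1 and 203 and the AGN libraries 157, 155 and 149. Tgfb3 rose at every step in both conditions, and no later group overlapped an earlier one of the same condition. The steps in CD1530 were 2.19, 1.03, 1.06, 0.70 and 0.75 on the log2 scale, and those in AGN 2.11, 0.97, 0.66, 1.00 and 0.60.

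Tgfb3 was higher in CD1530 from D7.5 onwards. The D7.5 libraries had 76.9, 70.8 and 74.7 TMM CPM in CD1530 and 50.4, 48.9 and 53.2 in AGN, a difference of 0.54 ± 0.05 (adjusted p = 8.55e-11). It was 0.25 ± 0.05 at D8.5 and 0.40 ± 0.05 at D10 (adjusted p = 7.45e-05 and 6.38e-09). At D6.75 it was 0.14 ± 0.06 (adjusted p = 0.0946), and not called although the libraries did not overlap. All 3 ligand genes were thus above AGN at D7.5 and D10. Exons of Tgfb3 share 7.6% and 4.82% of their bases with a pair of unnamed transcripts on the other strand, and without a stated strand setting such reads cannot be told apart.

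Levels of different genes were compared as TMM RPKM, the TMM CPM divided by gene length in kb. Over all annotated exons, the 3 ligands summed to 12.9 ± 0.69 RPKM in PM, and at D10 to 108 ± 0.27 with CD1530 and 83.2 ± 2.7 with AGN. The share of Tgfb1 in that sum was 72.6% ± 1.9 in PM and fell to 31.9% ± 0.58 with CD1530 and 36.5% ± 0.59 with AGN, while the share of Tgfb3 went from 8.63% ± 1.9 to 55.2% ± 0.61 and 54.6% ± 0.64. The share of Tgfb2 at D10 was 12.9% ± 0.13 in CD1530 and 8.91% ± 0.17 in AGN. The direction of these shifts held with the shorter exon lengths of the GENCODE basic transcript set, but the leading ligand at D10 did not. The Tgfb1 length is 5.04 kb over all exons and 2.17 kb in the basic set, and with the latter Tgfb1 kept 51.5% of the sum in CD1530 and 56.7% in AGN, with Tgfb3 at 38.5% and 36.6%. Which of the 2 ligand genes had more mRNA at D10 thus depends on the length used.

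**Figure D3:**
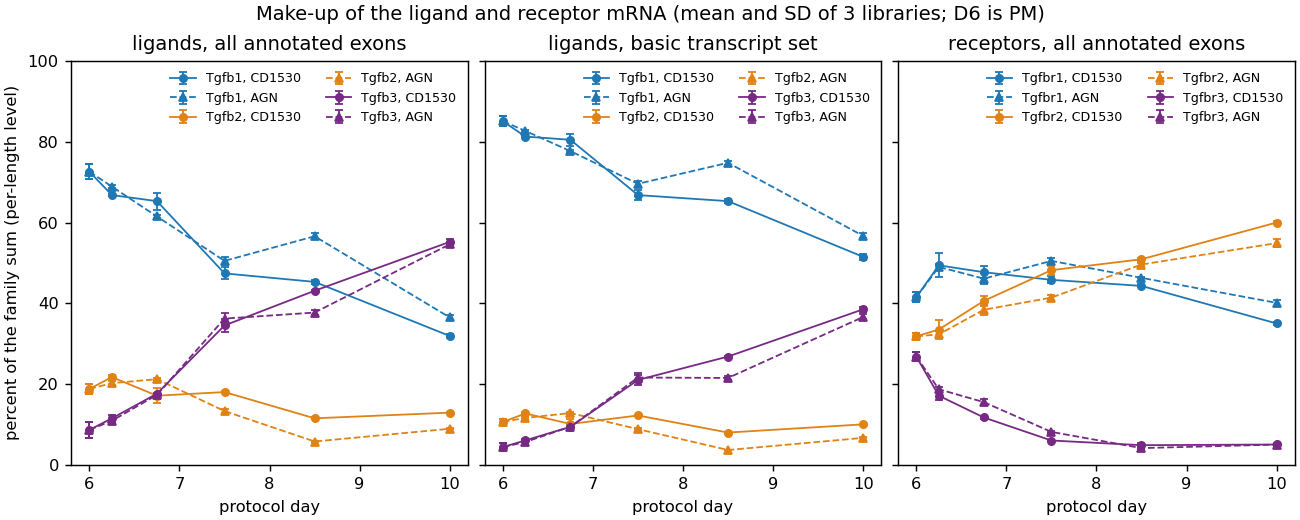
Percent of the summed per-length level (y axis) held by each gene of its family against protocol day, with D6 being PM. Circles with solid lines are CD1530, triangles with dashed lines AGN, and bars the SD of 3 libraries. Tgfb1 loses and Tgfb3 gains share in both ligand panels, they cross in the panel with all exons only, and Tgfbr3 drops from 26.8% to about 5% of the receptor sum.

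Tgfbr1 (ENSMUSG00000007613; chromosome 4, 47353222 to 47414931, plus strand), the type I receptor gene, had 47.6 ± 0.32 TMM CPM in PM and by D10 had risen to 144 ± 2.2 with CD1530 and 167 ± 1.8 with AGN. The D10 libraries had 146, 142 and 144 in CD1530 and 166, 165 and 168 in AGN. They did not overlap, and Tgfbr1 was lower in CD1530 by a log2 difference of -0.21 ± 0.05 (adjusted p = 0.000308), as at D8.5 (-0.17 ± 0.05, adjusted p = 0.00315). At D7.5 the difference was 0.00 ± 0.05, with a 95% interval of -0.09 to 0.10. The call at D6.75 rested on 1 library: CD1530 had 79.4, 97.8 and 102 against 103, 107 and 105 in AGN. There the difference of -0.18 ± 0.05 became -0.07 without the first of these (adjusted p = 0.191).

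Tgfbr2 (ENSMUSG00000032440; chromosome 9, 116084293 to 116175360, minus strand), the type II receptor gene, rose from 48.7, 44.6 and 44.1 TMM CPM in the PM libraries to 309, 304 and 313 with CD1530 and 286, 293 and 278 with AGN by D10. Per length it had the highest D10 level of the receptors, 37.7 RPKM in CD1530 and 34.9 in AGN. In the fit of all groups the conditions differed at D7.5. At D6.75 the difference was -0.15 ± 0.06 (adjusted p = 0.0747), and it was called without CD1530 replicate 2 (-0.21, adjusted p = 0.00832). Without CD1530 replicate 1 it was -0.07 (adjusted p up to 0.422 with 1 library left out). At D8.5 it was -0.07 ± 0.06 (adjusted p = 0.312), and it was called in a fit of the 6 libraries compared (-0.08, adjusted p = 0.0496). The D7.5 libraries had 159, 157 and 151 in CD1530 and 120.1, 126 and 117 in AGN, a difference of 0.36 ± 0.06 (adjusted p = 3.91e-06). From D6.75 to D7.5 Tgfbr2 rose by 0.65 ± 0.06 in CD1530, against 0.14 ± 0.06 in AGN (adjusted p = 0.0602), and the steps differed by 0.51 ± 0.08 (adjusted p = 3.44e-05). The next step differed the other way, by -0.44 ± 0.08 (adjusted p = 0.000133). At D10 the difference was 0.11 ± 0.05 (adjusted p = 0.0943, 0.000147 to 0.247 over its alternatives), and it was called with scaling by library size only and in a fit of the 6 libraries compared.

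Tgfbr3 (ENSMUSG00000029287; chromosome 5, 107106570 to 107289629, minus strand), the betaglycan gene, was the only ligand-binding member that fell from PM to D10. PM had 32.1, 32.1 and 28.3 TMM CPM, and D10 had 20.7, 21.0 and 20.2 in CD1530 and 19.6, 20.3 and 22.5 in AGN. The fall was -0.58 ± 0.08 and -0.57 ± 0.08, and at D10 the conditions differed by -0.01 ± 0.09 (95% interval -0.18 to 0.16). Both conditions had their lowest level at D8.5, with 14.0 ± 1.9 in CD1530 and 12.9 ± 0.51 in AGN, and rose after it.

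The fall came earlier in CD1530. At D6.75 the CD1530 libraries had 20.7, 24.0 and 23.6 TMM CPM and the AGN libraries 36.9, 36.5 and 32.9, above every PM library. The difference was -0.64 ± 0.08 (adjusted p = 1.28e-08), the largest of any member at that time, and it was -0.58 without CD1530 replicate 1. From D6.25 to D6.75 Tgfbr3 changed by -0.42 ± 0.08 in CD1530 and -0.00 ± 0.07 in AGN, and these steps differed by -0.41 ± 0.11 (adjusted p = 0.0118). That test was lost when CD1530 replicate 2 or replicate 3 at D6.25 was left out. Among the 3 receptors, the per-length share of Tgfbr3 went from 26.8% ± 1.2 in PM down to 5.01% ± 0.15 with CD1530 and 4.99% ± 0.38 with AGN at D10, and that of Tgfbr2 from 31.8% ± 0.88 to 60.0% ± 0.37 and 54.9% ± 1.0. Of its exon bases 4.54% are shared with an unnamed transcript on the same strand.

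Ltbp1 (ENSMUSG00000001870; chromosome 17, 75005568 to 75392512, plus strand) encodes the protein that anchors latent ligand in the matrix. PM had 15.9, 15.1 and 14.3 TMM CPM, and the level rose at every step in both conditions. At D10 it was 208, 204 and 209 in CD1530 and 388, 396 and 355 in AGN. Every AGN library was far above every CD1530 library, and the difference was -0.88 ± 0.05 (adjusted p = 1.49e-18). Most of it arose in the last step, in which Ltbp1 rose by 1.46 ± 0.05 in AGN and 0.81 ± 0.05 in CD1530, a difference between steps of -0.66 ± 0.07 (adjusted p = 1.94e-09). The sum of cartilage markers in AGN went from 1084 to 1129 at D8.5 to the D10 values given above, over the same step, and its part in the rise was not tested.

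An earlier, separate difference in Ltbp1 was seen at D6.75. CD1530 had 39.5, 44.4 and 45.4 TMM CPM and AGN 64.3, 56.1 and 61.2, a difference of -0.49 ± 0.06 (adjusted p = 1.01e-08). At D7.5 the libraries overlapped, at 70.2, 75.6 and 73.4 against 76.7, 77.3 and 72.3, with a difference of -0.05 ± 0.05 (95% interval -0.15 to 0.06). The CD1530 step between these times was the larger by 0.45 ± 0.08 (adjusted p = 0.000128). At D8.5 Ltbp1 was again lower in CD1530, by -0.22 ± 0.05 (adjusted p = 0.000584).

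Smad7 (ENSMUSG00000025880; chromosome 18, 75367529 to 75395935, plus strand), the inhibitory Smad gene and a direct TGF-beta target in many cells, had its highest level in PM, with 84.2, 81.8 and 82.1 TMM CPM. At D6.25, with TGFβ1 in the medium, CD1530 had 68.0, 74.1 and 76.3 and AGN 81.1, 80.5 and 80.3. No induced library at D6.25 was above PM. The change was -0.18 ± 0.06 in CD1530 (adjusted p = 0.00746) and -0.04 ± 0.06 in AGN (adjusted p = 0.608), and the CD1530 call was lost without its replicate 1 (adjusted p = 0.0649). At D10 Smad7 was below PM by -0.35 ± 0.06 in CD1530 and -0.54 ± 0.06 in AGN (adjusted p = 2.61e-06 and 4.4e-10).

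The range of Smad7 over the groups was small, 1.51-fold from the lowest mean to the highest. The conditions differed by 0.18 ± 0.06 at D7.5 and 0.19 ± 0.06 at D10 (adjusted p = 0.0247 and 0.0138). The D10 libraries were 64.8, 66.5 and 63.4 TMM CPM in CD1530 and 59.3, 58.8 and 52.6 in AGN, without overlap. Both calls were fragile. The D7.5 call was lost without CD1530 replicate 1 or 2 or AGN replicate 1 or 2, and the D10 call without CD1530 replicate 2 or AGN replicate 3, with adjusted p up to 0.158 and 0.119.

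Skil (ENSMUSG00000027660; chromosome 3, 31095058 to 31122577, plus strand), which encodes the Smad co-repressor SnoN, behaved otherwise. PM had 138, 124 and 133 TMM CPM, and at D6.25 CD1530 had 201, 204 and 205 and AGN 188, 181 and 190.2. All induced libraries were above PM, and the rise was 0.63 ± 0.05 in CD1530 and 0.50 ± 0.05 in AGN (adjusted p = 4.4e-15 and 2.84e-12). Skil went on by D10 to 326 ± 6.3 with CD1530 and 279 ± 1.4 with AGN, with no called change in the last step. It was higher in CD1530 at D7.5, D8.5 and D10, by 0.28 ± 0.05, 0.16 ± 0.05 and 0.22 ± 0.05 (adjusted p = 7.5e-06, 0.00563 and 7.98e-05), and the D8.5 call was lost without AGN replicate 2 (adjusted p = 0.0527). At D6.75 the difference of 0.15 ± 0.05 was called, but the libraries overlapped and the call was lost when any of 5 of the 6 libraries was left out. Its difference between conditions had no called change with time (adjusted p = 0.197), but the test was called without CD1530 replicate 1 at D6.75 (adjusted p = 0.0139).

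The median absolute log2 change of the members over the 5 consecutive steps was 0.70, 0.38, 0.37, 0.26 and 0.55 in CD1530, beside 0.39, 0.21, 0.16, 0.17 and 0.30 over all genes. In AGN it was 0.82, 0.19, 0.32, 0.56 and 0.57, beside 0.39, 0.20, 0.15, 0.20 and 0.32. From PM to D6.25, 8 of the 9 were called in CD1530 (67.8% of all genes) and 8 in AGN (68.1%), with 7 and 8 of them upward (34.5% and 35.0%) and 1 and 0 downward (33.3% and 33.1%). From D6.25 to D6.75 the counts were 6 in CD1530 (45.9%) and 7 in AGN (43.7%). From D6.75 to D7.5 they were 8 (34.2%) and 8 (30.3%), with 6 upward and 2 downward in CD1530 (18.7% and 15.5%) and 4 each way in AGN (14.2% and 16.0%). From D7.5 to D8.5 they were 8 (36.5%) and 9 (42.1%), and from D8.5 to D10 8 (57.3%) and 7 (59.4%). Some of these calls depended on single libraries. Tgfbr1 in CD1530 from D7.5 to D8.5 (adjusted p = 0.0431) was called in 0 of the 6 fits without 1 library (adjusted p up to 0.135). Smad7 in AGN over that step (adjusted p = 0.0463, libraries overlapping) was lost without replicate 2 or 3 of either time (up to 0.292). Tgfb1 in CD1530 from D8.5 to D10 was lost without replicate 2 or 3 at D8.5 or replicate 3 at D10 (up to 0.0823), and Tgfbr3 in AGN from PM to D6.25 without PM replicate 3 or AGN replicate 1 (up to 0.103). Consecutive steps share the libraries between them. Without CD1530 replicate 1 at D6.75, the D6.25 to D6.75 step in CD1530 was also called for Tgfb2 (0.13, adjusted p = 0.0203) and Tgfbr1 (0.19, adjusted p = 1.63e-05). The conditions differed in their step for 3 members from D6.25 to D6.75 (4.82% of all genes), 5 from D6.75 to D7.5 (9.0%), 4 from D7.5 to D8.5 (11.5%) and 3 from D8.5 to D10 (26.8%). Of these, Tgfbr3 from D7.5 to D8.5 was lost without replicate 2 of either condition at D7.5 or CD1530 replicate 1 at D8.5 (adjusted p up to 0.125). Smad7 from D8.5 to D10 was lost in 6 of 12 fits, those without CD1530 replicate 1 or 3 or AGN replicate 1 at D8.5, or CD1530 replicate 1 or 2 or AGN replicate 3 at D10 (up to 0.267). In the D6.75 to D7.5 step the 5 members, Tgfb1, Tgfb2, Tgfb3, Tgfbr2 and Ltbp1, all moved further up, or less far down, in CD1530 (5.60% of all genes did so and 3.41% the opposite). Over these times the sum of 5 endothelial markers was also higher in CD1530, 317 to 372 against 235 to 247 at D6.75 and 377 to 396 against 229.7 to 256 at D7.5. Other marker sums differed too, in both directions. At D7.5 that of the paraxial mesoderm markers was 135 to 149 in CD1530 against 85.5 to 97.6 in AGN. The cartilage sum was 485 to 507 against 694 to 732 and the endoderm sum 178 to 186 against 276 to 291. The part of these sums in the steps was not tested.

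Sorted by mean level, Tgfb3 gave the cleanest order of the 11 groups, in which time came before condition and only the D6.25 groups overlapped. For Tgfb2 the 4 lowest groups were PM and AGN at D8.5, D7.5 and D10, none of which overlapped its neighbour. Tgfb1 ran from 47.2 ± 3.0 in PM to 227 ± 6.0 in AGN at D8.5, and the 4 groups from 155 to 150.1 TMM CPM (AGN at D6.25 and D10, CD1530 at D7.5 and D6.25) overlapped in turn. Smad7 neighbours overlapped in 7 of 10 places. Over the 11 group means of log2(TMM CPM + 1), the gene most like Tgfb3 was Nek6 (Pearson r = 0.995), that most like Tgfbr1 was Erbb2 (0.995), that most like Tgfbr2 was Pik3ca (0.994) and that most like Ltbp1 was Ubn1 (0.994), among 10998 candidates. The closest to Skil was Dagla (0.991), to Smad7 Zc3hav1 (0.965), to Tgfbr3 Adipor1 (0.960), to Tgfb1 Begain (0.952) and to Tgfb2 Rnf19b (0.943). The members Tgfb3 and Tgfbr2 correlated at 0.98, and Tgfb3 and Smad7 at -0.82. All these values are over 11 groups that mostly follow time and carry no test.

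Beyond the members, 41 other genes of the pathway were in the table, in 5 lists. At D6.25 against PM, 37 of the 41 were called in CD1530 and 38 in AGN, 32 and 33 of them upward (over all genes, 67.8% and 68.1% were called, 34.5% and 35.0% upward). Of the 11 targets, 9 were called in each condition, all upward. Tgfbi, a matrix protein gene, rose by 3.97 ± 0.04 in CD1530 and 3.84 ± 0.04 in AGN, Junb by 2.57 ± 0.05 and 2.26 ± 0.05, and Snai1, a transcriptional repressor gene, by 2.03 ± 0.06 and 1.81 ± 0.06. All 9 inhibitors other than the members were called in each condition, 6 upward and 3 downward. Pmepa1 rose by 2.07 ± 0.06 and 2.09 ± 0.06, Smad6 by 1.80 ± 0.10 and 1.63 ± 0.11 and Bambi by 0.86 ± 0.09 and 0.92 ± 0.09. Those that fell were Tgif2 (-0.36 ± 0.09 and -0.45 ± 0.09), Tgif1 (-0.34 ± 0.04 and -0.32 ± 0.04) and Ppm1a (-0.16 ± 0.04 and -0.12 ± 0.04). In the latency list Thbs1, whose product thrombospondin activates latent ligand, rose by 3.38 ± 0.08 and 3.60 ± 0.08, the integrin genes Itgb8 by 2.51 ± 0.15 and 2.79 ± 0.15 and Itgb3 by 1.32 ± 0.08 and 1.55 ± 0.08, and Ltbp4 fell, by -0.92 ± 0.06 and -0.88 ± 0.06.

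At D10, 29 of the 41 differed between conditions, 15 higher and 14 lower in CD1530, where 46.6% of all genes were called, 22.7% higher and 24.0% lower. The lists had a median log2 difference of 0.01 beside -0.02 over all genes. In the latency list 10 of 12 were called, 6 higher and 4 lower. Lrrc32, whose product GARP holds latent ligand at the cell surface, was at 55.5 ± 1.2 TMM CPM in CD1530 and 18.9 ± 2.6 in AGN, a difference of 1.55 ± 0.07 (adjusted p = 7.29e-22). It was called at all 5 time points. Ltbp2 was higher in CD1530 by 1.09 ± 0.08 and the integrin gene Itgb5 by 0.88 ± 0.04, while Ltbp3 was lower by -0.72 ± 0.07, Thbs1 by -0.23 ± 0.06 and Furin, the convertase that cleaves the propeptide, by -0.14 ± 0.05. The Ltbp genes thus split, with Ltbp1 and Ltbp3 higher in AGN and Ltbp2 higher in CD1530, as was Ltbp4 (0.22 ± 0.05), which was added after its value was seen.

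Of 5 other receptors and partners at D10, 3 were lower in CD1530 and 0 higher: Dab2 by -0.79 ± 0.06, Acvrl1 by -0.43 ± 0.05 and Eng by -0.16 ± 0.05. Of 4 Smads and partners, all were called. Smad3 was higher in CD1530 by 0.65 ± 0.05 and Smad2 by 0.16 ± 0.05, and Trim33 and Smad4 were lower by -0.25 ± 0.09 and -0.14 ± 0.04. Of 9 other inhibitors, 4 were higher, with Smad6 at 0.35 ± 0.09, Pmepa1 at 0.23 ± 0.04 and Smurf1 at 0.20 ± 0.06, and 2 lower, Bambi at -0.42 ± 0.09 and Tgif1 at -0.42 ± 0.05. Of 11 targets, 3 were higher and 3 lower, a share of 54.5% beside the 46.6% of all genes. The growth arrest genes Cdkn2b (1.36 ± 0.05) and Cdkn1a (0.85 ± 0.04) and Snai2 (0.25 ± 0.10) were higher in CD1530, and Snai1 (-1.43 ± 0.06), Tgfbi (-1.33 ± 0.03) and Ccn2 (-0.22 ± 0.05) were lower.

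**Figure D4:**
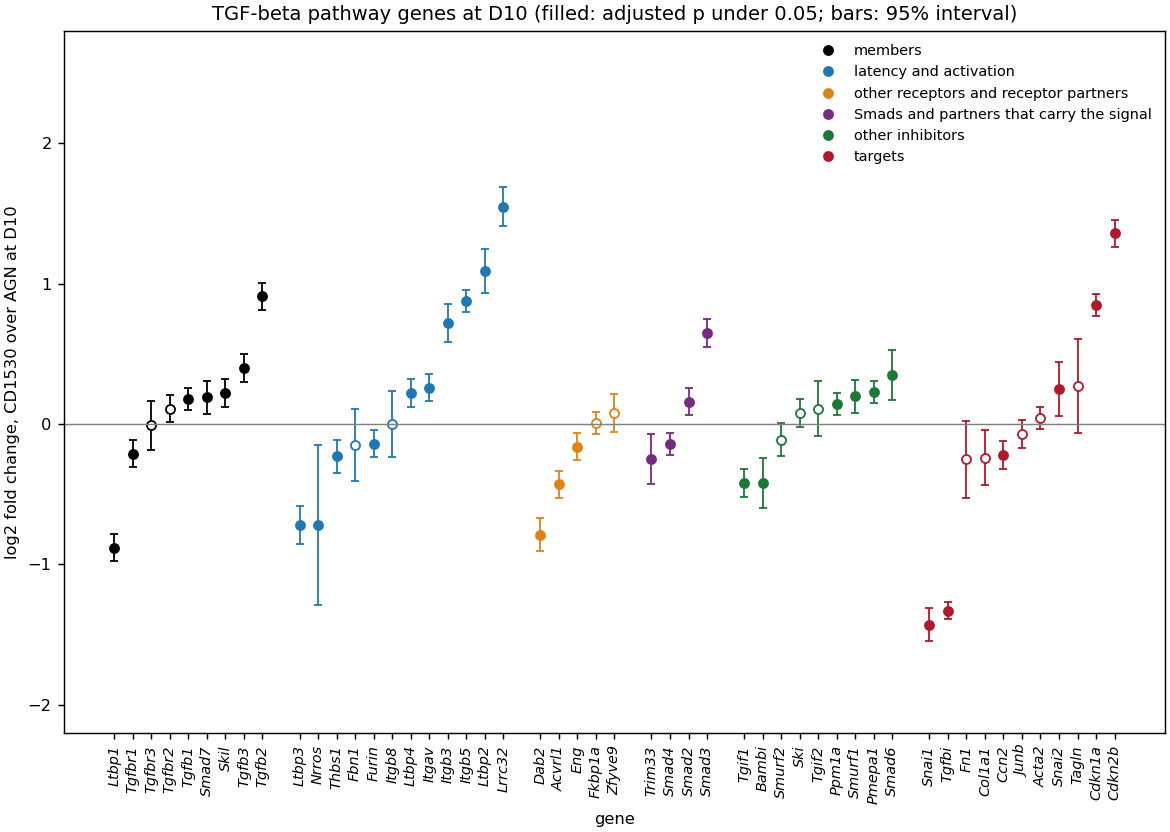
Log2 fold change of CD1530 over AGN at D10 (y axis) for the 9 members and 41 other pathway genes, grouped by list and sorted within it. Bars are 95% intervals, filled points were called and open points were not. Each group but the other receptors holds called genes on both sides of 0.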

How the data were processed

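RNA was sequenced from 33 libraries (11 groups of 3 biological replicates). The study as a whole used several ScxGFP lines, and the sources used here do not give the line or lines of these libraries. The authors aligned reads with STAR to GRCm38 and deposited raw featureCounts counts per gene; the annotation and strand setting are not given in the sources used here, and the library kit does not mark strand, so reads of overlapping genes cannot be told apart. The 9 members and all lists were chosen with earlier results of these data known.

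Counts were fitted with edgeR 4.0.16 (R 4.3.3, limma 3.58.1; TMM, robust quasi-likelihood over all 11 groups, BCV 4.68%). The filter on low counts removed 0 of 17120 genes. In all, 22 tests were made per gene, with Benjamini-Hochberg adjustment over all genes of each; the 4 differences between steps were added after seeing the data. SE is the log2 fold change divided by the root of F, and 95% intervals are 1.96 SE. Per-length values used GENCODE M21 exons on GRCm38, matched for 17117 IDs. Other pathway genes were named up to 3 per list and direction, the largest changes among those called with at least 50 mean counts, and the nearest genes to a member were those of highest r with a group mean of at least 10 CPM. 1 target gene of the lists is not reported here and is left out of their counts. Scripts were tested on simulated data. Alternatives were DESeq2 1.42.0, other scalings and filters, a replicate block and leaving out each library. Sampling of counts limits precision most at the lowest levels. Same-numbered libraries correlated at -0.13 to 0.2, with 0 of 17 comparisons above the limit for pairing, so no block was used.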

Additional observations from a re-analysis of the deposited data

Results flagged for a closer look

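The difference between CD1530 and AGN changed over the 5 time points for 8 of the 9 members (edgeR quasi-likelihood test of the interaction, adjusted over all genes). The adjusted p was 7.45e-13 for Tgfb1, 3.99e-21 for Tgfb2 and 4.48e-05 for Tgfb3. It was 0.0481 for Tgfbr1, 1.28e-05 for Tgfbr2 and 6.36e-06 for Tgfbr3. It was 0.0035 for Smad7 and 8.65e-12 for Ltbp1. The call for Tgfbr1 was lost in most of the alternatives, as given above. Over all genes 48.8% were called in this test.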

How the results depend on the processing

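Results of members recomputed under other scalings, filters and tests numbered 1584, counting fold changes and the interaction test, which has no direction. Of these, 1524 kept their side of the threshold and any direction, 29 lost the call, 19 gained it and 12 changed sign. With 1 library left out the same numbers were 1511, 68, 20 and 21 of 1620. No value that changed sign was called in either fit. Under other scalings, 53 of 198 recomputed group levels of members moved by more than their SD. With the exon lengths of the GENCODE basic set, 43 of 66 shares within a family did so. A fit of only the groups compared moved the members called at D6.25 from 0 to 3, at D6.75 from 6 to 2, and for the differences between steps from 3 to 0 (D6.25 to D6.75), 4 to 7 (D7.5 to D8.5) and 3 to 5 (D8.5 to D10). The cause was not tested. In that fit all genes called went from 329 to 804 at D6.25, from 3076 to 1236 at D6.75, from 7853 to 5185 for CD1530 from D6.25 to D6.75 and from 5854 to 2792 for its next step, and for the differences between these steps from 826 to 439 and 1541 to 649. For the step differences D7.5 to D8.5 and D8.5 to D10 the fit of all groups called 1972 and 4591 of all genes. These changed by a smaller factor than the counts just given. No share from the fit of only the groups compared stands beside its 7 and 5 members, so nothing is read from them. Leaving out 1 library gave 0 to 1 members at D6.25, the 1 being Ltbp1 without AGN replicate 2. All genes called at D6.25 fell to 196 without AGN replicate 3 (218, 214 and 200 without CD1530 replicate 1 or 3 or AGN replicate 1), and those for the step difference D6.25 to D6.75 rose to 1301 without CD1530 replicate 1 at D6.75. With the replicate block, calls for Tgfbr1 (CD1530, D7.5 to D8.5, 8 members to 7, and the interaction, 8 to 7) and Smad7 (AGN, D7.5 to D8.5, 9 to 8) were lost. Sign changes under other settings were Tgfbr1 at D7.5 (-0.01 with DESeq2, its size factors, library size only or only the groups compared), Tgfbr3 at D10 (0.03 by library size, 0.01 with only the groups compared), Tgfbr3 from PM to D6.25 in CD1530 (0.04 by library size), Skil from D8.5 to D10 in CD1530 (-0.08 by library size), Smad7 in AGN from PM to D6.25 (0.01 by library size) and D8.5 to D10 (0.03 with DESeq2 and its size factors), and the Tgfbr1 step difference D8.5 to D10 (0.01 with only the groups compared). With 1 library left out, values that crossed 0 ranged as follows. Between conditions they were -0.02 to 0.14 for Tgfb3 and -0.14 to 0.03 for Tgfbr2 at D6.25, -0.02 to 0.06 for Smad7 at D6.75, -0.02 to 0.02 for Tgfbr1 at D7.5, -0.12 to 0.06 for Smad7 at D8.5 and -0.05 to 0.05 for Tgfbr3 at D10. Over time they were -0.08 to 0.06 for Tgfbr3 from PM to D6.25 in CD1530, and in AGN -0.03 to 0.04 for Tgfbr3 from D6.25 to D6.75 and -0.07 to 0.11 for Smad7 from D8.5 to D10. For step differences they were -0.15 to 0.02 for Tgfbr1 and -0.03 to 0.11 for Skil (D6.25 to D6.75) and -0.02 to 0.04 for Tgfb2 (D7.5 to D8.5). Scaled by library size, the median log2 change of all genes was -0.15 (AGN, PM to D10), -0.11 (AGN, D8.5 to D10) and -0.13 (CD1530, D8.5 to D10). With TMM it was -0.00, -0.01 and -0.03. The share of calls that were higher went, from TMM to library size, from 50.9% to 32.2% (AGN, D7.5 to D8.5), 50.4% to 38.7% (AGN, D8.5 to D10), 51.6% to 40.5% (CD1530, D7.5 to D8.5) and 47.8% to 35.6% (CD1530, D8.5 to D10).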
